A study of Mus musculus with 36 samples.

Results

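Gene expression in the cerebellum of mice with 1 deleted copy of *Pogz* in the nervous system was compared with that of control mice. Of the 36 libraries of the series, 12 made up the comparison, namely the 6 cerebellar libraries titled *Pogz* cKO+/- (animals Sample_933, Sample_938, Sample_1120, Sample_1176, Sample_1189 and Sample_1433) and the 6 titled Control (animals Sample_1129, Sample_1155, Sample_1170, Sample_1172, Sample_1190 and Sample_1192). They were chosen by title and tissue, without any measured value. All animals were adults of the strain C57Bl/6, with 3 males and 3 females in each group. The cKO+/- mice had the genotype NesCre/+; Pogzfl/+, with a floxed allele, an unfloxed allele and Cre recombinase under control of *Nestin* sequences. The controls were Pogzfl/fl without Cre, so that both of their alleles were floxed and intact. The groups therefore also differed in the Cre transgene and in an unfloxed allele, and effects of these cannot be told apart from loss of an allele. Where named, 6 cerebellar cKO-/- libraries (NesCre/+; Pogzfl/fl) and the hippocampal libraries of the same animals are set beside them.

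POGZ is a zinc finger protein with a transposase-derived domain that binds HP1, the protein that marks compacted, silent chromatin, and it helps to release HP1 from chromosomes in mitosis. Loss of 1 copy of *POGZ* in people causes a syndrome of developmental delay and autism. *Nestin*-driven Cre deletes floxed alleles in neural precursors, and so in neurons, astrocytes and oligodendrocytes, whereas microglia, blood cells and most cells of vessels and meninges arise elsewhere and keep their alleles. In the cerebellum most neurons are granule cells, Purkinje cells carry the output of the cortex, and Bergmann glia are its specialised astrocytes.

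Reads of poly(A) RNA counted on genes came to between 26741855 and 29954493 per control library (median 28634616.5) and between 26757278 and 32544929 per cKO+/- library (median 28945530.5). Levels below are in CPM, counts scaled for library size with edgeR's TMM factors, and 3 counts, the floor for detection, came to between 0.0922 and 0.112 CPM in these libraries. Such floors cover counting error only. The labels were checked against marker genes. *Gabra6*, a granule cell gene, lay between 677 and 1075 CPM in the 12 libraries. The X-inactivation transcript *Xist* was at most 0.894 CPM in the males and at least 594 CPM in the females. Control Sample_1129 had 1458 CPM of *Xist*, the most of the 12 libraries.

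The cKO+/- libraries Sample_933 and Sample_1433, both from males, stood apart from the other 10. Markers of the choroid plexus, the epithelium that makes cerebrospinal fluid at the roof of the fourth ventricle, summed to 45.3 to 58.2 CPM in controls. They summed to 2526 CPM in Sample_933 and 3373 CPM in Sample_1433, while the other 4 cKO+/- libraries lay between 47.1 and 52.4 CPM. Transthyretin (*Ttr*) made up 2177 and 2935 CPM of these 2 sums and at most 2.68 CPM in the other 10 libraries, and *Mfrp* had 0 counts in all 12 libraries. Brainstem and midbrain markers summed to 29.5 to 49.3 CPM in controls, 119 in Sample_933, 205 in Sample_1433, 64.7 in Sample_938 and 64.8 in Sample_1120. Of these sums the glutamate transporter gene *Slc17a6* made up 0.227 to 9.52 CPM in controls, 59.01 in Sample_933 and 105 in Sample_1433. It was at 20.6 CPM in Sample_938 and 25.4 in Sample_1120, but at 1.02 in Sample_1176 and 0.187 in Sample_1189. Ependymal markers summed to 8.19 to 10.7 CPM in controls, 27.1 in Sample_933, 34.1 in Sample_1433 and 19.7 in Sample_1120. The granule cell sum was lowest in Sample_1433, at 5234 CPM against 7825 to 9064 in controls. Results are therefore also given without Sample_933 and Sample_1433, a comparison chosen after seeing the data. What part the amount of neighbouring tissue in a dissection had in any result was not tested.

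**Figure D1:**
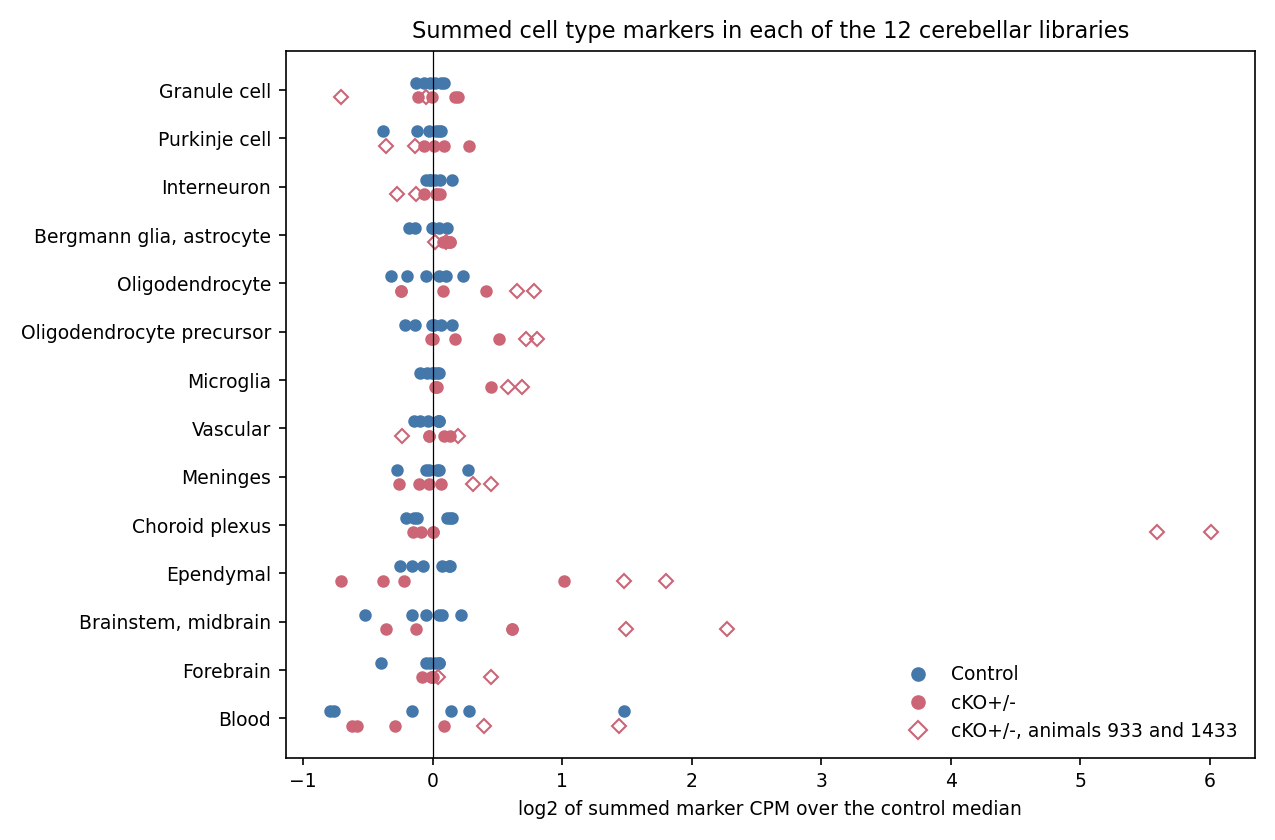
Summed CPM of marker genes for 14 cell types or regions in each of the 12 cerebellar libraries, as log2 of the ratio to the control median (horizontal axis); blue circles are controls, red circles cKO+/- libraries and open diamonds cKO+/- animals Sample_933 and Sample_1433. The choroid plexus sums of these 2 animals, 2526 and 3373 CPM, lie far to the right of all other libraries.

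*Pogz* itself was read first, since it checks the genotype labels. *Pogz* lay at 89.6 to 129.6 CPM (median 93.1) in controls and at 66.4 to 81.5 CPM (median 80.1) in cKO+/- mice. No cKO+/- library reached the lowest control (exact permutation test of the means, 2-sided, p = 0.00216, and no smaller value is possible with 6 against 6). The fitted difference was -0.35 on the log2 scale (SE 0.0887), smaller than loss of 1 of 2 equal copies would give, and it did not pass correction over all genes (adjusted p = 0.143, edgeR's quasi-likelihood test with Benjamini-Hochberg adjustment). Control Sample_1129 had the highest level, 129.6 CPM, with the next control at 100.7. Library Sample_933 had the lowest, 66.4 CPM, with the next cKO+/- library at 77.3. DESeq2's Wald test put the same difference at an adjusted p of 0.0240, the smallest over all alternatives, and the largest was 0.959 in edgeR with a covariate for animals outside a run of numbers described below. In cKO-/- mice, which have no intact allele in neural cells, *Pogz* was still at 57.01 to 73.97 CPM (median 65.3). Counts were summed over whole genes, floxed exons included, so they bound neither the amount of intact transcript nor the share of cells in which Cre acted. Cell types in which *Nestin*-driven Cre does not act keep intact alleles in all groups, and their part in these levels was not tested.

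Genes above 1 CPM in at least 6 of the 12 libraries were tested in edgeR with sex as a covariate, and a gene was called at an adjusted p under 0.05. Of 13757 genes tested, 48 were called (0.349%). There were 39 called higher in cKO+/- cerebellum (0.283%) and 9 called lower (0.0654%). A fold change above 2 was fitted for 12 of the higher and 5 of the lower genes. The median fitted difference over all genes tested was 0.00 on the log2 scale, with 1836 genes at an unadjusted p under 0.05. Without any model, all 6 cKO+/- libraries lay above all 6 controls in 94 genes (0.683%) and below them in 58 (0.422%). Of the 48 called genes the groups were apart in 39. The 9 others, with overlapping libraries, were *Col1a2*, *Bmp6*, *Col1a1*, *Sema3a*, *Casp1*, *Vipr2*, *Bmp5*, *Adamts1* and *Trp63*.

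The number of called genes depended strongly on which animals were in the fit. The controls were all numbered from Sample_1120 to Sample_1192, as were cKO+/- animals Sample_1120, Sample_1176 and Sample_1189, while Sample_933, Sample_938 and Sample_1433 lay outside this run. What the numbers stand for is not given in the sources used here. With only the 3 cKO+/- animals within the run 12 genes were called, and with only the 3 outside it 346 were. The median size of the log2 difference over 45 of the called genes tested in both fits was 0.64 within the run and 0.91 outside it. These fits share the 6 controls. Leaving out 1 library at a time gave from 18 called genes without Sample_938 to 112 without Sample_1189, with 22 without Sample_933. Without libraries Sample_933 and Sample_1433, 19 genes were called, 16 of them among the 48. All called genes kept their direction in each of these fits in which they passed the filter. Of the 48 genes, 18 were also called with any 1 of the 12 libraries left out. Of these, 9 were called as well within the run, outside it, with a covariate for the run and without Sample_933 and Sample_1433, namely *Igsf1*, *Cpxm2*, *Gfap*, *Aqp4*, *Tlr4*, *Acot1*, *Tdo2*, *Igf2* and *Comp*.

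**Figure D2:**
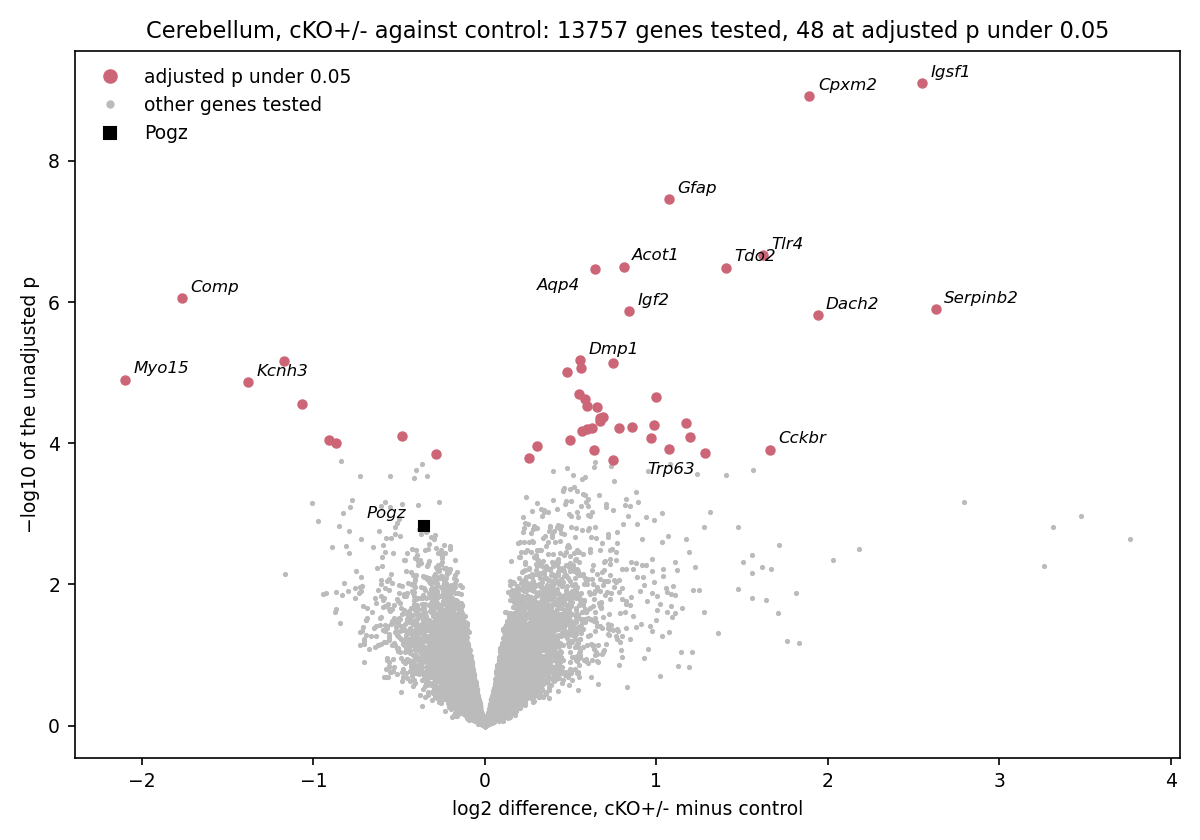
Difference between cKO+/- and control cerebellum on the log2 scale (horizontal axis) against minus log10 of the unadjusted p (vertical axis) for 13757 genes; red points are the 48 genes at an adjusted p under 0.05, and the black square is *Pogz*. *Igsf1* and *Cpxm2* have the smallest p, and 39 of the red points lie on the right, higher in cKO+/- mice.

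The smallest p belonged to 2 genes of membrane and secreted proteins, *Igsf1* and *Cpxm2*. *Igsf1*, on the X chromosome, encodes an immunoglobulin superfamily glycoprotein whose loss in people lowers thyroid hormone through the pituitary. It lay at 2.69 to 3.85 CPM (median 3.09) in controls and at 14.7 to 29.9 CPM (median 16.6) in cKO+/- mice. No library of either group came near the other group, and Sample_1433 was highest at 29.9 CPM. The difference was larger than for any other called gene but *Serpinb2* (log2 difference 2.55, SE 0.168, adjusted p = 8.33e-06, edgeR quasi-likelihood test), and without Sample_933 and Sample_1433 it was 2.35. *Cpxm2* encodes a secreted member of the carboxypeptidase family with a discoidin domain. Its levels were 1.48 to 2.23 CPM (median 1.88) in controls and 5.66 to 8.10 CPM (median 7.14) in cKO+/- mice. Again all 6 cKO+/- libraries exceeded all controls, by a wide gap and with little spread (log2 difference 1.89, SE 0.129, adjusted p = 8.33e-06, edgeR quasi-likelihood test). Within the run of animal numbers the difference of *Cpxm2* was 1.84, and outside it 1.95.

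The promoters of these genes are printed because they head the list of called genes, with 250 bases before and 50 after the gene start, from RefSeq on GRCm38.p6. Capitals mark GGGCGG (the GC box), TATAAA (the TATA box) and CCAAT, each on either strand. *Igsf1* has 3 promoters in that table, and the window at the start of the gene as annotated in the count table, chrX:49797696-49797995 on the minus strand, is given. *Cpxm2* has 1, chr7:132154692-132154991 on the minus strand.
Igsf1: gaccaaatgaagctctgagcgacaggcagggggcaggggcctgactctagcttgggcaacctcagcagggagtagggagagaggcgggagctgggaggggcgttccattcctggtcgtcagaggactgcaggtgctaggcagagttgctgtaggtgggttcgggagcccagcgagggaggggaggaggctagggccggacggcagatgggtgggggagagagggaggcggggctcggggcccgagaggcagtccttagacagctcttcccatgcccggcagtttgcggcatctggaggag
Cpxm2: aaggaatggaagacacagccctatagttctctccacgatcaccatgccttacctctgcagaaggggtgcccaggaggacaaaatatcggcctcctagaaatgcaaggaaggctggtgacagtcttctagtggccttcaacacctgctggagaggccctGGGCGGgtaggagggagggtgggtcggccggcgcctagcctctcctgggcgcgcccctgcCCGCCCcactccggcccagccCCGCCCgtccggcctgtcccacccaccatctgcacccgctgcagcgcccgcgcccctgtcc
The *Cpxm2* window holds 3 GC boxes, and the *Igsf1* window holds none of the 3 motifs. Both windows are 66.0% G and C. Over all 32851 promoters, 35.7% hold the GC box, 13.6% the TATA box and 37.4% CCAAT. Over the 13446 promoters of the genes tested the shares are 61.6%, 7.11% and 37.2%. For the called genes, 39 of 48 matched by symbol with 54 promoters, and 51.9%, 11.1% and 35.2% of these hold the motifs.

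**Figure D3:**
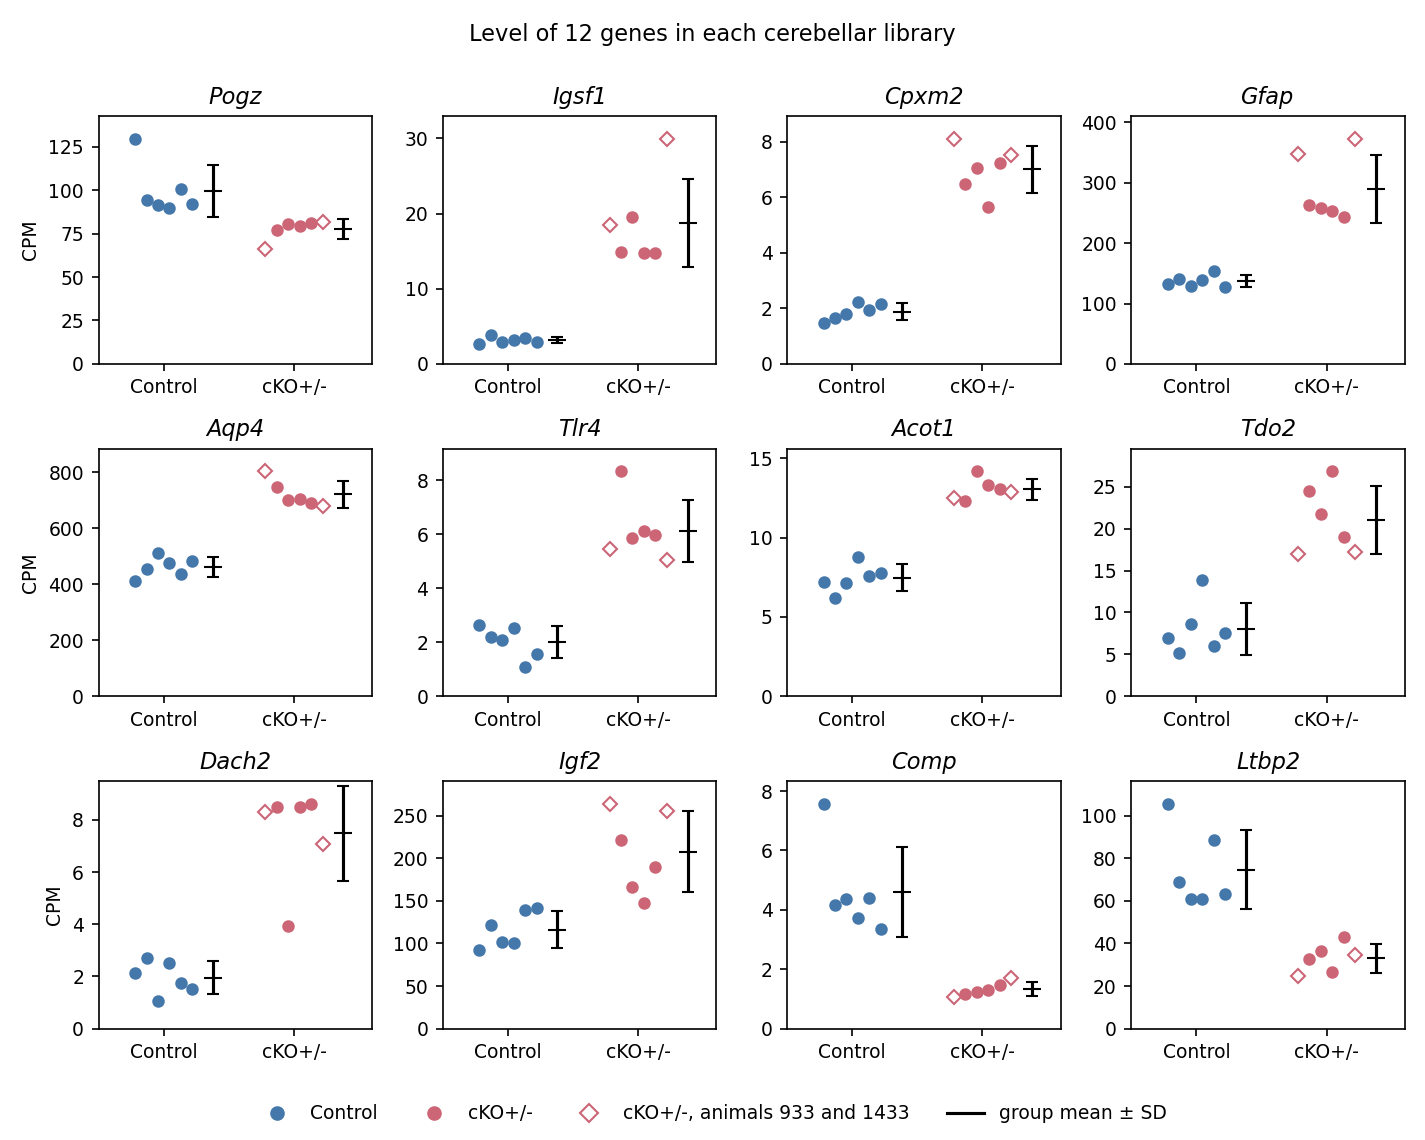
Level in CPM (vertical axes, from 0) of 12 genes in each control (blue) and cKO+/- (red) cerebellar library, with open diamonds for animals Sample_933 and Sample_1433 and black bars for group means ± SD. In every panel the cKO+/- libraries lie wholly above or, for *Pogz*, *Comp* and *Ltbp2*, wholly below the controls.

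Genes of astrocytes and Bergmann glia were among the called genes with the smallest p. *Gfap*, the intermediate filament that astrocytes raise when they react to injury, lay at 128 to 153 CPM (median 136) in controls and at 244 to 373 CPM (median 261) in cKO+/- mice. All cKO+/- libraries were above all controls, and the highest 2 were Sample_933 and Sample_1433 (log2 difference 1.07, SE 0.0959, adjusted p = 0.000160, edgeR quasi-likelihood test). Without these 2 libraries the difference was 0.90 and was called. *Aqp4*, the water channel of astrocyte endfeet, was measured at 411 to 512 CPM (median 464) in controls and 678 to 803 CPM (median 702) in cKO+/- mice. The groups were again apart (log2 difference 0.64, SE 0.0696, adjusted p = 0.000667, edgeR quasi-likelihood test), and the difference was 0.61 without Sample_933 and Sample_1433. *Gja1*, which encodes the astrocyte gap junction protein connexin 43, lay at 228 to 276 CPM (median 254) in controls and 303 to 336 CPM (median 313) in cKO+/- mice (log2 difference 0.31, SE 0.0565, adjusted p = 0.0361, edgeR quasi-likelihood test). The call of *Gja1* was lost in 10 of 12 leave-one-out fits, with differences of 0.28 to 0.32. Of the listed markers of astrocytes and Bergmann glia these 3 were called, 7 of 12 were fitted higher, and the median was 0.15, or 0.10 without Sample_933 and Sample_1433. Over all 13757 genes tested 48 were called (0.349%), 6730 were fitted higher and the median was 0.00. The summed level of the list, which includes the 3 called genes, was 4324 to 5274 CPM in controls and 4957 to 5388 in cKO+/- mice. Its most abundant member, the glutamate transporter *Slc1a3*, was not higher, with medians of 1817 CPM in controls and 1780 in cKO+/- mice. The Bergmann glia marker *Hopx* did not pass (log2 difference 0.34, SE 0.0806, adjusted p = 0.111, edgeR quasi-likelihood test). In bulk tissue, more cells of a type and more RNA per cell cannot be told apart.

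The called genes *Tlr4*, *Casp1*, *Acot1* and *Tdo2* were placed together after their values were seen, and no list was set for them. *Tlr4*, the receptor for bacterial lipopolysaccharide, lay at 1.09 to 2.65 CPM (median 2.14) in controls and 5.05 to 8.34 CPM (median 5.91) in cKO+/- mice, with every cKO+/- library above every control (log2 difference 1.62, SE 0.169, adjusted p = 0.000667, edgeR quasi-likelihood test). The highest library was Sample_938, at 8.34 CPM, and without Sample_933 and Sample_1433 the difference was 1.62. *Casp1*, the inflammasome protease, was at 1.58 to 4.28 CPM (median 2.12) in controls and 3.85 to 7.72 CPM (median 5.50) in cKO+/- mice, with overlapping libraries (log2 difference 1.20, SE 0.215, adjusted p = 0.0314, edgeR quasi-likelihood test). Its call was lost within the run and without Sample_933 and Sample_1433, at 1.14 in the latter, and was kept in 3 of 12 leave-one-out fits. *Acot1*, a thioesterase that splits fatty acyl-CoA, lay at 6.22 to 8.79 CPM (median 7.39) in controls and 12.3 to 14.2 CPM (median 12.97) in cKO+/- mice (log2 difference 0.81, SE 0.0870, adjusted p = 0.000667, edgeR quasi-likelihood test). The cKO+/- libraries spread little and were all above the controls. The count of *Acot1* is uncertain, since 50% of its 43-base windows, the length of a read, also occur in other genes, most of them in *Acot2*. *Tdo2*, which opens the kynurenine path of tryptophan breakdown, lay at 5.19 to 13.9 CPM (median 7.26) in controls and at 16.99 to 26.8 CPM (median 20.3) in cKO+/- mice. The groups were apart, although control Sample_1172 reached 13.9 CPM (log2 difference 1.41, SE 0.152, adjusted p = 0.000667, edgeR quasi-likelihood test). None of the listed microglia markers was called, and 14 of 14 were fitted higher with a median of 0.30, or 0.16 without Sample_933 and Sample_1433. Of all 13757 genes tested 48 were called (0.349%) and 6730 fitted higher. They summed to 187 to 207 CPM in controls, to 299, 273 and 322 in Sample_933, Sample_938 and Sample_1433, and to between 203 and 204 in the other 3 cKO+/- libraries. Within the run of animal numbers the difference was 1.54 for *Tlr4*, which was called, and 1.03 for *Casp1*, which was not. What part microglia had in the differences of *Tlr4* and *Casp1* was not tested.

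Called genes of growth factors and of secreted or matrix proteins are given next, a grouping made after their values were seen. *Igf2*, an imprinted growth factor made in the adult brain by meninges and choroid plexus, was at 91.97 to 142 CPM (median 112) in controls and 148 to 264 CPM (median 206) in cKO+/- mice. All cKO+/- libraries were above all controls, with Sample_933 and Sample_1433 highest (log2 difference 0.84, SE 0.103, adjusted p = 0.00184, edgeR quasi-likelihood test). The difference was 0.75 without them and 0.62 within the run of animal numbers, called in both fits. *Igf2* overlaps *Igf2os* on the other strand, and whether the counting used strand is not given in the sources used here, so this count is uncertain. *Col1a2*, a chain of type I collagen, lay at 36.8 to 48.5 CPM (median 37.8) in controls and 48.3 to 64.9 CPM (median 54.6) in cKO+/- mice, with 1 control, Sample_1192, within the cKO+/- range (log2 difference 0.48, SE 0.0703, adjusted p = 0.00850, edgeR quasi-likelihood test). *Col1a1*, the other chain of type I collagen, was at 10.7 to 17.4 CPM (median 13.6) in controls and 17.1 to 26.3 CPM (median 21.4) in cKO+/- mice (log2 difference 0.67, SE 0.113, adjusted p = 0.0233, edgeR quasi-likelihood test). Without Sample_933 and Sample_1433 neither collagen gene was called, while the differences were 0.44 for *Col1a2* and 0.62 for *Col1a1*. With 1 library left out the call was kept in 12 of 12 fits for *Col1a2* and 5 of 12 for *Col1a1*. The bone morphogenetic proteins *Bmp5* and *Bmp6* were both called higher. *Bmp5* lay at 12.2 to 22.2 CPM (median 19.09) in controls and 19.5 to 54.5 CPM (median 38.7) in cKO+/- mice, with overlap (log2 difference 1.07, SE 0.201, adjusted p = 0.0386, edgeR quasi-likelihood test), and without Sample_933 and Sample_1433 its difference was 1.29 and called. The *Bmp5* call was kept in 2 of 12 leave-one-out fits, and neither within the run (1.20) nor outside it (0.99). *Bmp6* was at 8.61 to 14.3 CPM (median 9.82) in controls and 12.2 to 20.6 CPM (median 14.8) in cKO+/- mice, also with overlap, and without the 2 libraries it was at 0.49 and not called, against 0.58 with them. The remaining genes of secreted or membrane-bound matrix proteins and proteases called higher were *Tgfbi* (1.17 on the log2 scale), *Npnt* (0.97), *Fstl1* (0.75), *Adamts1* (0.63), *Mmp14* (0.60), *Fbln7* (0.57) and *Dmp1* (0.55). With 1 library left out the call was kept in 6 of 12 fits for *Tgfbi*, 3 of 12 for *Npnt*, 2 of 12 for *Fstl1*, 3 of 12 for *Adamts1*, 10 of 12 for *Mmp14* and 4 of 12 for *Fbln7*. Of these 6, *Mmp14* alone was called without Sample_933 and Sample_1433, and the others were at 0.94, 0.83, 0.47, 0.71 and 0.63, in the order given. The size of *Tgfbi* and *Fstl1* depended on the animals, at 0.73 and 0.43 within the run and 1.52 and 0.97 outside it. *Dmp1*, a phosphoprotein of bone and dentin matrix, lay at 14.7 to 17.5 CPM (median 16.4) in controls and 19.9 to 25.4 CPM (median 24.7) in cKO+/- mice, with groups apart, and was called within the run at 0.56 (log2 difference 0.55, SE 0.0778, adjusted p = 0.00727, edgeR quasi-likelihood test). Without Sample_933 and Sample_1433 it was at 0.50 and not called.

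Of the meninges markers 13 of 16 were fitted higher, and 2, the collagens above, were called, beside 6730 fitted higher and 48 called of the 13757 genes tested. The median was 0.34, and 0.16 without Sample_933 and Sample_1433. They summed to 1103 to 1609 CPM in controls and 1111 to 1817 in cKO+/- mice, led by prostaglandin D synthase (*Ptgds*), with Sample_933 and Sample_1433 again highest. On the list of extracellular matrix genes, 21 of 26 were fitted higher, *Dmp1* was called higher, and *Comp* and *Ltbp2* lower. The median of this list was 0.24, and 0.04 over 25 tested genes without Sample_933 and Sample_1433. What part meningeal tissue had in these values was not tested.

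A group of 3 neighbouring semaphorin genes, put together after their values were seen, was called higher. The class 3 semaphorins are secreted guidance cues that act on neuropilin and plexin receptors. *Sema3d*, *Sema3a* and *Sema3e* follow each other on chromosome 5 with no other tested gene between them, over gaps of 807.8 and 421.8 kb. *Sema3e* lay at 16.6 to 30.2 CPM (median 22.1) in controls and 32.5 to 47.2 CPM (median 35.4) in cKO+/- mice, with groups apart (log2 difference 0.75, SE 0.106, adjusted p = 0.00727, edgeR quasi-likelihood test). *Sema3d* lay at 7.31 to 10.004 CPM (median 9.21) in controls and 11.9 to 16.2 CPM (median 13.9) in cKO+/- mice, also apart (log2 difference 0.65, SE 0.106, adjusted p = 0.0173, edgeR quasi-likelihood test). *Sema3a*, the most abundant of the 3 in controls, lay at 29.2 to 42.2 CPM (median 34.6) in controls and 36.7 to 67.6 CPM (median 53.1) in cKO+/- mice, with overlapping libraries (log2 difference 0.60, SE 0.105, adjusted p = 0.0264, edgeR quasi-likelihood test). With 1 library left out *Sema3e* was called in 12 of 12 fits, *Sema3d* in 11 of 12 and *Sema3a* in 4 of 12. Of the 3, *Sema3a* alone was called without Sample_933 and Sample_1433, at 0.71, against 0.75 for *Sema3e* and 0.64 for *Sema3d*. Their promoters are printed because the genes are neighbours and were all called higher, from RefSeq with the same motifs in capitals. The windows lie at chr5:12382916-12383215, chr5:13396534-13396833 and chr5:14025026-14025325, all on the plus strand of GRCm38.p6. Whether the 3 genes varied together across libraries was not tested.
Sema3d: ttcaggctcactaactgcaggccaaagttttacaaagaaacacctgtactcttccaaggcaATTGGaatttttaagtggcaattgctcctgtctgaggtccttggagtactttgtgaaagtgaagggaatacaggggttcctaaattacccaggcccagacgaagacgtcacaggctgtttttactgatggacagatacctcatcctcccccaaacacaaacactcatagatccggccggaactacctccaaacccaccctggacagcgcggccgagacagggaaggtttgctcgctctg
Sema3a: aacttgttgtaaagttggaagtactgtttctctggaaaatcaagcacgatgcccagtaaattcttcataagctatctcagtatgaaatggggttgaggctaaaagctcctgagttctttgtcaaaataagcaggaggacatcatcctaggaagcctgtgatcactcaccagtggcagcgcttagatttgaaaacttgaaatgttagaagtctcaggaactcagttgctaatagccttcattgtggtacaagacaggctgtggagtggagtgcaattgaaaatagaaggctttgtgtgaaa
Sema3e: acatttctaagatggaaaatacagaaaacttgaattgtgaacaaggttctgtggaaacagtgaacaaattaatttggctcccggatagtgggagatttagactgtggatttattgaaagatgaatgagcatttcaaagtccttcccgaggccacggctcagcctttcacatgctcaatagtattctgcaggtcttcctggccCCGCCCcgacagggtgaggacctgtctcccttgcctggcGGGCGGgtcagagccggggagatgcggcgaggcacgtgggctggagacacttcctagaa
The *Sema3d* window holds 1 CCAAT and the *Sema3e* window 2 GC boxes, while the *Sema3a* window holds none of the 3 motifs. They differ in base composition too, with 49.7%, 41.3% and 50.7% G and C in *Sema3d*, *Sema3a* and *Sema3e*.

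Other called genes, also grouped after their values were seen, were higher by less than 2-fold in most cases. *Epha5*, an ephrin receptor that guides axons, lay at 9.66 to 18.3 CPM (median 13.9) in controls and 20.3 to 28.2 CPM (median 23.8) in cKO+/- mice, with groups apart (log2 difference 0.78, SE 0.137, adjusted p = 0.0264, edgeR quasi-likelihood test). *Pcdh17*, a protocadherin of synapse-bearing membranes, lay at 29.4 to 47.7 CPM (median 37.96) in controls and 53.3 to 66.6 CPM (median 65.5) in cKO+/- mice. *Lrp4*, the agrin receptor of the neuromuscular junction, differed by 0.50 (SE 0.0898). *Cckbr*, a receptor for cholecystokinin, was low, at 0.213 to 1.17 CPM (median 0.874) in controls and 1.27 to 4.93 CPM (median 1.97) in cKO+/- mice (log2 difference 1.66, SE 0.312, adjusted p = 0.0386, edgeR quasi-likelihood test). Library Sample_1433 held the highest *Cckbr* level at 4.93 CPM, with the next at 2.56, and the call was lost in 10 of 12 leave-one-out fits, with differences of 1.42 to 1.95. *Klhl1*, an actin-binding protein of Purkinje cells, lay at 4.33 to 5.89 CPM (median 4.89) in controls and 7.59 to 14.3 CPM (median 8.93) in cKO+/- mice. It remained called without Sample_933 and Sample_1433, at 0.69 against 0.99 with them. The size of *Klhl1* depended on the animals. Within the run of animal numbers it was at 0.62 and not called, while outside the run it was larger and called. With 1 library left out the *Klhl1* call was kept in 6 of 12 fits. *Klhl13*, an adaptor of a ubiquitin ligase, was at 27.5 to 32.1 CPM (median 29.1) in controls and 36.7 to 51.9 CPM (median 43.4) in cKO+/- mice, with groups apart (log2 difference 0.56, SE 0.0806, adjusted p = 0.00782, edgeR quasi-likelihood test). *Arhgap6*, of a GTPase-activating protein, had the groups apart as well, at 2.82 to 4.81 CPM (median 3.87) in controls and 6.34 to 10.7 CPM (median 7.26) in cKO+/- mice (adjusted p = 0.0150, edgeR quasi-likelihood test). The genes *Tmem229a*, *Zfp941*, *Car13* and *Efhd2* completed the list with 0.55, 0.62, 0.69 and 0.26 on the log2 scale. With 1 library left out the call was kept in 2 of 12 fits for *Efhd2*, 4 for *Zfp941* and 5 each for *Epha5* and *Lrp4*. It was kept in 7 of 12 for *Pcdh17*, 8 for *Car13*, 11 for *Tmem229a* and 12 each for *Klhl13* and *Arhgap6*. Of the 11 genes of this paragraph, *Klhl1* and *Arhgap6* were called without Sample_933 and Sample_1433 and the other 9 were not, at 0.76 for *Epha5*, 0.64 for *Pcdh17*, 0.42 for *Lrp4*, 1.42 for *Cckbr*, 0.46 for *Klhl13*, 0.44 for *Tmem229a*, 0.57 for *Zfp941*, 0.62 for *Car13* and 0.27 for *Efhd2*.

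Several genes of low level in control cerebellum were higher. *Dach2*, an X-linked cofactor of transcription of the dachshund family, lay at 1.06 to 2.71 CPM (median 1.94) in controls and at 3.93 to 8.62 CPM (median 8.38) in cKO+/- mice. Library Sample_1120 was lowest of the cKO+/- group, at 3.93 CPM, and still above every control (log2 difference 1.94, SE 0.239, adjusted p = 0.00189, edgeR quasi-likelihood test). *Serpinb2*, an inhibitor of plasminogen activators, lay at 0.151 to 0.780 CPM (median 0.464) in controls and 1.56 to 3.83 CPM (median 2.75) in cKO+/- mice (log2 difference 2.63, SE 0.318). These levels rest on 4 to 22 counts per control library, and *Serpinb2* passed the filter only through the 6 cKO+/- libraries. The group in which it was high thus decided the filter, so its p is not given and no weight is put on its call. With 1 of these left out it was therefore not tested, so its call was examined only with a control left out. *Tmem196*, of a little-studied membrane protein, was at 4.80 to 6.57 CPM (median 5.98) in controls and 8.27 to 15.4 CPM (median 9.59) in cKO+/- mice, and *Trp63*, of the p53 family, at 0.5684 to 1.07 CPM (median 0.641) in controls and 0.934 to 2.57 CPM (median 1.74) in cKO+/- mice. *Tmem196* was no longer called without Sample_933 and Sample_1433, at 0.65, and *Trp63* did not pass the filter there. The call of *Tmem196* was kept in 6 of 12 leave-one-out fits. For *Trp63* Sample_1192 was the only control above 1 CPM, at 1.07 CPM, with the next control at 0.722. The group in which *Trp63* was high thus largely decided the filter, so no weight is put on its call. It was called in 1 of the 6 leave-one-out fits in which it was tested. *Akr1c13*, an aldo-keto reductase gene, was below the filter in these libraries, at 0 to 0.160 CPM (median 0.0721) in controls and 0.341 to 0.735 CPM (median 0.425) in cKO+/- mice. Of its 43-base windows 28.9% also occur in *Akr1c12*, so its count is uncertain. *Gm364* had 0 counts in all 6 cKO+/- libraries, which allows up to 0.112 CPM, and at most 1 count in a control.

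The 9 genes called lower included several of low level. *Comp*, a matrix protein of cartilage from the thrombospondin family, lay at 3.37 to 7.58 CPM (median 4.27) in controls and at 1.08 to 1.71 CPM (median 1.27) in cKO+/- mice, the groups well apart (log2 difference -1.77, SE 0.207, adjusted p = 0.00153, edgeR quasi-likelihood test). Control Sample_1129 was highest, at 7.58 CPM, and the call held without it. *Ltbp2*, which binds latent TGF-beta in microfibrils, was at 60.9 to 106 CPM (median 65.9) in controls and 24.8 to 43.1 CPM (median 33.7) in cKO+/- mice, with no overlap (log2 difference -1.17, SE 0.165, adjusted p = 0.00727, edgeR quasi-likelihood test). The *Ltbp2* count is uncertain, because D030025P21Rik overlaps it on the other strand and shares 10.4% of its 43-base windows. *Myo15*, a myosin of the stereocilia of hair cells, spread widely among controls, at 5.19 to 17.1 CPM (median 10.3) in controls and 0.684 to 3.64 CPM (median 2.63) in cKO+/- mice (log2 difference -2.10, SE 0.313, adjusted p = 0.0101, edgeR quasi-likelihood test). *Kcnh3*, a voltage-gated potassium channel gene, lay at 4.26 to 7.27 CPM (median 4.99) in controls and 1.22 to 3.70 CPM (median 1.78) in cKO+/- mice (log2 difference -1.38, SE 0.208, adjusted p = 0.0104, edgeR quasi-likelihood test), and overlaps *Mcrs1* on the other strand, which makes it uncertain. *Gcgr*, the glucagon receptor gene, had 18 to 63 counts per library, at 1.34 to 2.16 CPM (median 1.67) in controls and 0.652 to 0.955 CPM (median 0.813) in cKO+/- mice (log2 difference -1.07, SE 0.172). Only the 6 controls exceeded 1 CPM, so *Gcgr* passed the filter through them and was not tested with a control left out. As with *Serpinb2*, its p is not given and no weight is put on its call. *Plvap*, which forms the diaphragms of leaky endothelium, lay at 19.7 to 26.5 CPM (median 21.03) in controls and 14.1 to 16.99 CPM (median 15.4) in cKO+/- mice (log2 difference -0.49, SE 0.0869, adjusted p = 0.0307, edgeR quasi-likelihood test). *Cdc20*, the activator of the anaphase-promoting complex, was at 2.35 to 3.64 CPM (median 3.14) in controls and 1.296 to 2.02 CPM (median 1.63) in cKO+/- mice (log2 difference -0.91, SE 0.165, adjusted p = 0.0314, edgeR quasi-likelihood test), and *Elovl1* overlaps it on the other strand. *Vipr2*, a receptor for the peptide VIP, overlapped between groups, at 9.04 to 17.3 CPM (median 14.3) in controls and 5.58 to 9.65 CPM (median 7.30) in cKO+/- mice (log2 difference -0.87, SE 0.159, adjusted p = 0.0344, edgeR quasi-likelihood test). *Zfp949*, a zinc finger gene, had the smallest step of the 9, -0.29 (SE 0.0546). With 1 library left out the call was kept in 1 of 12 fits for *Zfp949*, 3 for *Cdc20*, 4 for *Plvap* and 5 for *Vipr2*. For *Comp*, *Ltbp2*, *Myo15* and *Kcnh3* it was kept in 12 of 12. Without Sample_933 and Sample_1433, *Comp* and *Myo15* were still called, at -1.86 and -2.13, while the other 7 were not, with *Ltbp2* at -1.08, *Kcnh3* at -1.26, *Gcgr* at -1.12, *Vipr2* at -0.88, *Cdc20* at -0.84, *Plvap* at -0.42 and *Zfp949* at -0.25.

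**Figure D4:**
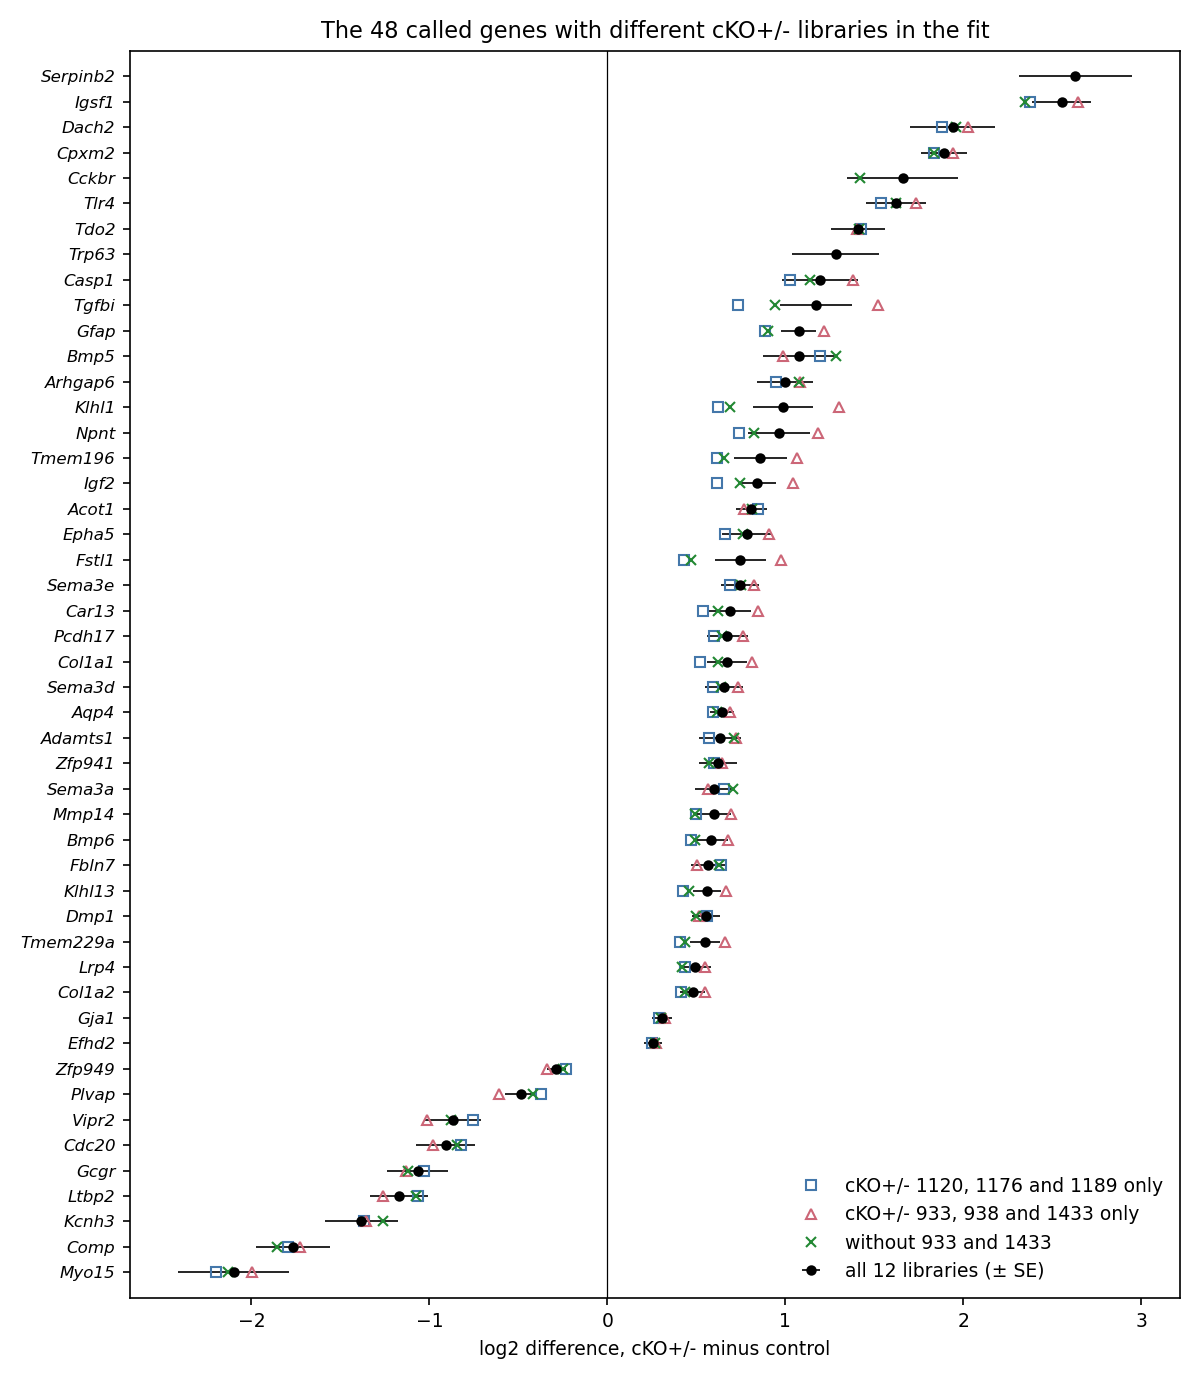
Log2 difference between cKO+/- and control cerebellum (horizontal axis) for the 48 called genes, with all 12 libraries (black, bars ± SE), with cKO+/- animals Sample_1120, Sample_1176 and Sample_1189 only (blue squares), with Sample_933, Sample_938 and Sample_1433 only (red triangles) and without Sample_933 and Sample_1433 (green crosses). All points of a gene lie on the same side of 0. *Tgfbi*, for example, was at 0.73 and 1.52 with the first and the other 3 animals, and a missing symbol means that the gene did not pass the filter.

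Genes of the insulin-like growth factor and GABA-A receptor systems that the study names were less clear. The study fitted expression to 2, 1 or 0 intact alleles, with cKO-/- mice included. Only cKO+/- mice and controls are compared here, so these values do not test that fit. *Igf1* lay at 9.92 to 12.3 CPM (median 11.01) in controls and 10.99 to 18.3 CPM (median 12.3) in cKO+/- mice, with overlapping groups (log2 difference 0.29, SE 0.125, adjusted p = 0.352, edgeR quasi-likelihood test), and its difference was 0.04 within the run and 0.51 outside it, called in neither. Of the genes of the insulin-like growth factor list 8 of 13 were fitted higher, *Igf2* was called, and the median was 0.07, or 0.00 without Sample_933 and Sample_1433. *Gabra2*, the alpha 2 subunit of the GABA-A receptor, was at 39.5 to 71.3 CPM (median 59.4) in controls and 72.6 to 94.4 CPM (median 82.9) in cKO+/- mice. All 6 cKO+/- libraries were above all controls, but correction over all genes left the difference just short of the threshold (log2 difference 0.51, SE 0.106, adjusted p = 0.0619, edgeR quasi-likelihood test). *Gabra2* was called in 2 of 12 leave-one-out fits and in 1 of the 10 other alternatives. *Gabra3*, the alpha 3 subunit, lay at 10.95 to 19.2 CPM (median 12.5) in controls and 13.5 to 37.4 CPM (median 19.3) in cKO+/- mice, with overlap (log2 difference 0.69, SE 0.230, adjusted p = 0.268, edgeR quasi-likelihood test). The difference of *Gabra3* was 0.25 within the run, 0.99 outside it and 0.26 without Sample_933 and Sample_1433, and the highest level, 37.4 CPM, was that of Sample_1433. *Gabra6*, the granule cell subunit and the most abundant of the list, was fitted at -0.11 (SE 0.0948). Of the GABA-A subunit genes tested 9 of 12 were fitted higher, with a median of 0.08. None was called in the edgeR fit of all 12 libraries, beside 0.349% called and 6730 of 13757 fitted higher over all genes tested. *Gabrr3* had 0 counts. Other genes of inhibitory synapses (9 of 13 fitted higher, median 0.09) and glutamate receptors (17 of 25, median 0.08) held no called gene. The metabotropic receptor gene *Grm5* had the smallest p of the latter (log2 difference 1.17, SE 0.312, adjusted p = 0.163, edgeR quasi-likelihood test).

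Markers of the cerebellar neurons held no called gene, beside 0.349% called over all genes tested, of which 6730 of 13757 were fitted higher. In short lists no call does not show that a cell type was the same in both groups. Of granule cell markers 2 of 12 were fitted higher (median -0.05, 0.06 without Sample_933 and Sample_1433), of Purkinje cell markers 6 of 15 (median -0.03, 0.08 without them) and of interneuron markers 6 of 12 (median 0.00, 0.08 without them). The Purkinje cell sum, led by *Itpr1*, was 12235 to 16683 CPM in controls and 12424 to 19444 in cKO+/- mice. Oligodendrocyte markers, led by *Mbp*, were all fitted higher (16 of 16) with a median of 0.34, and none was called. Without Sample_933 and Sample_1433 that median was 0.09. Their sum was 4447 to 6513 CPM in controls, 8718 in Sample_933, 9517 in Sample_1433, 7371 in Sample_1120 and 4677 to 5857 in the other 3 cKO+/- libraries. Markers of their precursors went the same way (6 of 6 fitted higher, median 0.43, 0.21 without Sample_933 and Sample_1433). *Olig2*, a transcription factor of the lineage, had the smallest p of these, with groups apart but no call (log2 difference 0.58, SE 0.121, adjusted p = 0.0624, edgeR quasi-likelihood test). Vascular markers had 10 of 17 fitted higher and a median of 0.06. Choroid plexus, ependymal, brainstem and forebrain markers had medians of 1.36, 0.55, 0.49 and 0.12 over 7, 3, 7 and 7 tested genes. Without Sample_933 and Sample_1433 the medians were 0.00, -0.10, -0.04 and -0.01 over 7, 2, 7 and 6 tested genes. None of these 4 lists held a called gene. For blood, the globin genes *Hba-a1*, *Hba-a2*, *Hbb-bs*, *Hbb-bt* and *Hbb-b2* had 0 counts in all 12 libraries and *Alas2* was tested (0.08), and for the pineal gland 1 gene, *Rom1*, was tested (-0.40) and *Gngt1* had 0 counts.

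Lists tied to roles of POGZ and to other processes were read next. Among genes of heterochromatin, HP1, ADNP and histone or DNA methylation 11 of 29 were fitted higher, none was called, and the median was -0.03. The methyltransferase gene *Suv39h2* (-0.23, SE 0.0908) and the SETDB1 partner *Atf7ip* (0.34, SE 0.138) had the smallest p. Germline genes, which include the meiosis gene *Sycp1* at 23.8 to 29.5 CPM in controls, were 7 tested of 20 listed, with 5 of 7 fitted higher, a median of 0.09 and no call, and *Asz1*, *Tex101* and *Tex19.1* had 0 counts. *Rnf17*, of the germline list, was fitted at 0.88 (SE 0.263) and did not pass. Mitosis genes, tied to POGZ through chromosome segregation, had 2 of 9 fitted higher, a median of -0.22 and 1 call, the lower *Cdc20*. Without Sample_933 and Sample_1433 that median was -0.12 and *Cdc20* was not called. *Ccnb2*, a cyclin of mitosis, was next at -0.75 (SE 0.233, adjusted p = 0.241, edgeR quasi-likelihood test). Autism risk genes had 19 of 39 fitted higher and a median of 0.00, with none called. Activity-regulated early genes (4 of 21 fitted higher, median -0.13), clock genes (5 of 20, -0.10) and chaperones (13 of 20, 0.08) held no call either. Without Sample_933 and Sample_1433 the medians were -0.04 for the early genes, -0.05 for clock genes, 0.10 for chaperones, 0.07 for autism risk genes, 0.12 for germline genes and -0.01 for heterochromatin genes. In all genes tested, 6730 of 13757 were fitted higher and 48 called (0.349%), with a median of 0.00.

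The same animals' hippocampi were tested in the same way. There 3 of 14157 genes were called (0.0212%), *Dach2* and *Snrpn* higher and *Pogz* lower, with 1589 at an unadjusted p under 0.05 and 128 called by DESeq2. Without Sample_1176 edgeR called 384, and without any other single library at most 7. *Snrpn* is named because of the small count, after its value was seen. Choroid plexus markers summed to 5193 CPM in hippocampal control Sample_1129, 2573 in control Sample_1170 and 714 in cKO+/- Sample_1189, and to at most 187 in the other 9 libraries. Without the hippocampal libraries of Sample_1129 and Sample_1170, left out after seeing the data, 5 genes were called, *Dach2*, *Snrpn*, *Aqp4*, *Igf2* and *Igfbp2*, all higher. *Igf2* was then at 1.33, against 0.30 with them, and *Igfbp2* at 0.79 against -0.17. The groups were apart in 73 genes (0.516%). Of the 48 genes called in the cerebellum 39 were tested. *Dach2* lay at 0.593 to 1.40 CPM (median 0.757) in hippocampal controls and 3.34 to 4.53 CPM (median 3.84) in cKO+/- mice, a difference of 2.21 (SE 0.186) beside 1.94 (SE 0.239) in the cerebellum. *Aqp4* had the groups apart in both tissues, at 0.49 (SE 0.0747) in the hippocampus, just short of a call there (adjusted p = 0.0572, edgeR quasi-likelihood test). *Pogz* was at 88.99 to 92.8 CPM (median 90.7) in hippocampal controls and 73.98 to 80.2 CPM (median 75.6) in cKO+/- mice, and was called there (log2 difference -0.25, SE 0.0333, adjusted p = 0.0194, edgeR quasi-likelihood test). That call was lost in 6 of 12 leave-one-out fits and without Sample_1129 and Sample_1170, at -0.25 in the latter. Its difference between tissues was 0.10 (SE 0.0902) and not called.

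Whether the effect of the genotype differed between the tissues was tested as an interaction over 24 libraries. The hippocampal library of control Sample_1129 held 49.4 CPM of *Gabra6* and 19.2 CPM of the Purkinje cell gene *Pcp2*, at most 1.09 and 0.894 CPM in the other hippocampal libraries of these groups, and what part cerebellar RNA in it had was not tested. Of 14665 genes, 18 were called (0.123%), 14 of them with the more negative effect in the hippocampus. *Igsf1* was the first by p. In the hippocampus it lay at 7.54 to 13.7 CPM (median 10.2) in controls and 11.9 to 16.2 CPM (median 14.3) in cKO+/- mice, so that the cerebellar cKO+/- level came near that of the hippocampus, and the effects of 0.38 and 2.55 differed by -2.18 (SE 0.218, adjusted p = 1.68e-05, edgeR quasi-likelihood test). For *Cpxm2* the hippocampal effect was 0.22 and the tissue difference -1.67 (SE 0.211). *Gfap*, which was higher in hippocampal controls (351 to 421 CPM, median 411), had a hippocampal effect of 0.28 and a tissue difference of -0.80 (SE 0.119). *Tlr4* (-1.38, SE 0.243), *Tdo2* (-1.31, SE 0.263), *Npnt* (-1.46, SE 0.232) and *Epha5* (-1.01, SE 0.190) also had their larger effect in the cerebellum. *Npnt* and *Epha5* were fitted lower in hippocampal cKO+/- mice, at -0.48 and -0.23, neither called. *Kcnh3* was abundant in the hippocampus, at 119.9 to 140.2 CPM (median 130.4) in controls and 115 to 133 CPM (median 131) in cKO+/- mice, and differed by 1.33 (SE 0.191) between tissues. *Comp*, below the filter in the hippocampus alone, differed by 2.26 (SE 0.404). Its cerebellar libraries sufficed for it to pass the filter of this fit, so its hippocampal effect rests on low counts. With the animal as a block, which pairs the tissues, 6 genes were called, all among the 18, and *Gfap*, *Kcnh3* and *Tdo2* were not, at -0.80, 1.34 and -1.37. Without the cerebellar libraries of Sample_933 and Sample_1433 there were 5, also all among the 18, and *Npnt*, *Tlr4*, *Epha5*, *Tdo2* and *Comp* were not called. Leaving out the hippocampal libraries of Sample_1129 and Sample_1170 as well gave 4, *Igsf1*, *Cpxm2*, *Gfap* and *Comp*, and of the genes above *Igsf1* and *Cpxm2* alone were called in all 3 of these fits. Leaving out 1 animal's library gave from 4 calls without Sample_1192 to 193 without Sample_1189, with 119 without Sample_1176.

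**Figure D5:**
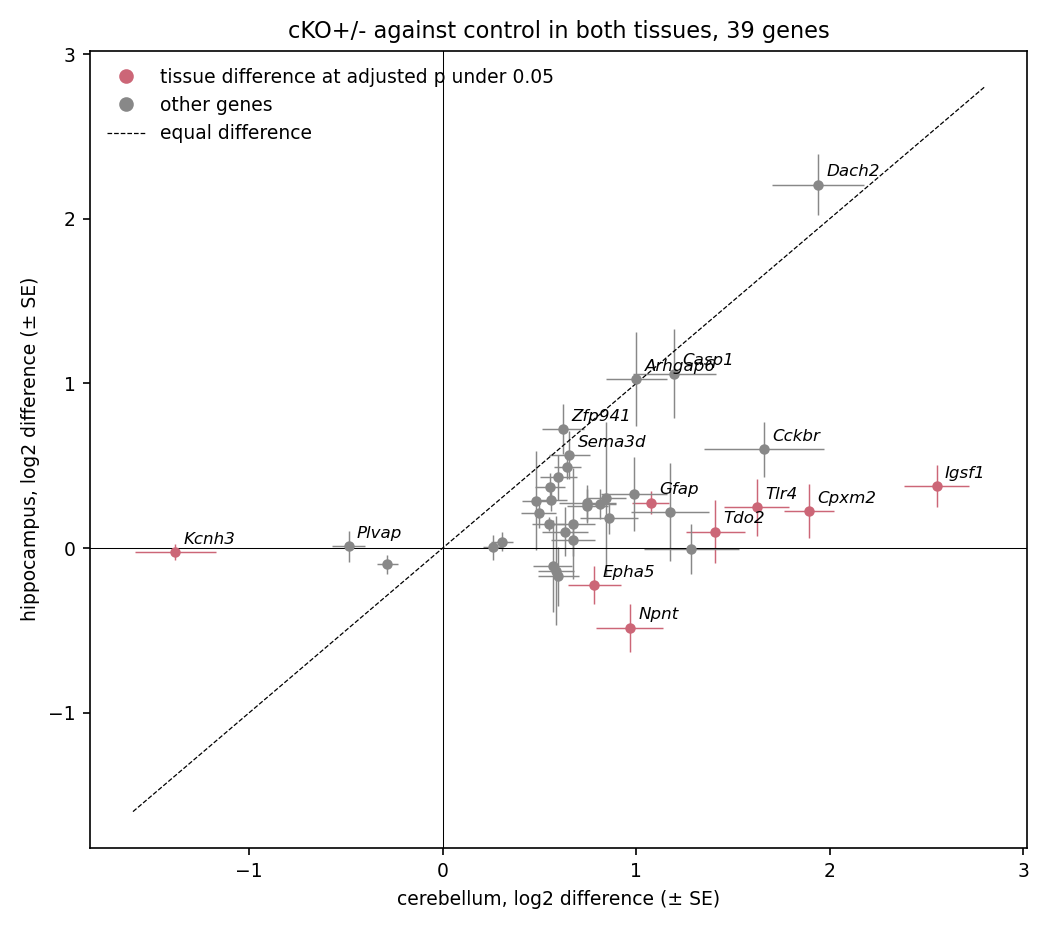
Log2 difference between cKO+/- and control in the cerebellum (horizontal axis) and the hippocampus (vertical axis) for the 39 called cerebellar genes tested in both tissues, with bars of ± SE; red points are genes whose difference between the tissues had an adjusted p under 0.05. *Dach2* lies at 1.94 and 2.21, and *Igsf1* at 2.55 and 0.38, far below the dashed line of equal differences.

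The sexes were compared through the sex by genotype term within the cerebellum, with 3 animals per sex and genotype. Of 13757 genes edgeR called 0 (0%), as did DESeq2, with 196 genes at an unadjusted p under 0.05 in edgeR. Without Sample_1189 edgeR called 17. This is a small design, and no call does not show that the sexes respond alike. The 5 genes with the smallest p were D630041G03Rik, *Sorcs2*, *Slc4a5*, *Kcnj13* and *Cldn2*. *Slc4a5*, *Kcnj13* and *Cldn2* are genes of the choroid plexus, and both libraries high in its markers were from males. *Slc4a5*, for example, lay at 0.608 to 1.963 CPM (median 1.27) in controls and 0.546 to 23.4 CPM (median 1.24) in cKO+/- mice. For the genes that head the list the fitted differences between the sexes were 0.16 (SE 0.337) for *Igsf1*, 0.20 (SE 0.261) for *Cpxm2* and 0.04 (SE 0.147) for *Aqp4*. For *Igf2* this term was -0.04 (SE 0.212), with Sample_933 and Sample_1433 among its 3 cKO+/- males.

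Cerebella without any intact allele in neural cells were set beside these values. Between cKO-/- and cKO+/- mice 36 of 13880 genes were called (0.259%), and between cKO-/- and control mice 1074 of 13817 (7.77%). These comparisons share the cKO+/- or the control libraries with the one above, so only each gene's own values are given. The cKO-/- library Sample_936 was also high in choroid plexus markers, at 3243 CPM. Without it, Sample_933 and Sample_1433 the counts were 18 and 536. The granule cell sum was 5533, 6210 and 4642 CPM in cKO-/- Sample_1371, Sample_1379 and Sample_1385, and 7756 to 9616 in the other cKO-/- libraries. Controls lay at 7825 to 9064 CPM. The meninges sum was 2415, 2943 and 2574 CPM in the same libraries, and 1050 to 2105 in the other cKO-/- libraries. Controls lay at 1103 to 1609 CPM. What part such differences in tissue had in the values below was not tested. *Igsf1* lay at 10.004 to 27.6 CPM (median 15.4) in cKO-/- mice, within reach of the cKO+/- range (-0.14, SE 0.248 between the 2 mutants). The same held for *Cpxm2* at 4.23 to 7.58 CPM (median 5.41) (-0.33, SE 0.146), *Gfap* at 215 to 368 CPM (median 269) (-0.05, SE 0.152) and *Acot1* at 9.64 to 15.3 CPM (median 11.95) (-0.09, SE 0.110). *Aqp4* was at 665 to 761 CPM (median 747), and its difference between the mutants was 0.01 (SE 0.0660). None of these 5 differences was called, which does not show that the levels are equal. A second group of genes lay further from controls in cKO-/- than in cKO+/- mice. *Dach2* went on to 18.3 to 31.2 CPM (median 27.2) (log2 difference 1.76, SE 0.201, adjusted p = 0.000893, edgeR quasi-likelihood test). *Tlr4* was at 11.5 to 23.2 CPM (median 14.9) (1.38, SE 0.167), *Serpinb2* at 9.82 to 23.98 CPM (median 14.4) (2.42, SE 0.264) and *Dmp1* at 45.9 to 62.8 CPM (median 53.02) (1.16, SE 0.0846), all called between the mutants. *Casp1* (1.299, SE 0.169), *Tmem196* (1.26, SE 0.167) and *Fbln7* (1.14, SE 0.114) were called there as well. In the other direction *Ltbp2* fell to 6.93 to 17.8 CPM (median 12.3) (log2 difference -1.40, SE 0.208, adjusted p = 0.00872, edgeR quasi-likelihood test), and *Myo15* was at 0.170 to 1.07 CPM (median 0.402) without a call (-2.33, SE 0.468).

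A further group of genes lay below 1 CPM in cKO+/- cerebellum and above it without both alleles. *Gm364* lay at 18.3 to 24.997 CPM (median 22.4) in cKO-/- mice, against 0 counts in every cKO+/- library. Gm13544 was at 0 counts in all controls, at 0.0377 to 0.367 CPM (median 0.0704) in cKO+/- and at 9.45 to 15.98 CPM (median 11.4) in cKO-/- mice. Its count is uncertain, since *Acvr1c* lies over it on the opposite strand. *Akr1c13* lay at 2.05 to 3.55 CPM (median 3.08), Kank4os at 2.96 to 4.19 CPM (median 3.10) and 9430018G01Rik at 4.11 to 6.97 CPM (median 6.21). For the last, controls lay at 0.137 to 0.417 CPM (median 0.262) and cKO+/- mice at 0.124 to 0.643 CPM (median 0.295), with overlap.

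The called genes were spread over the genome. They lay on all chromosomes but 17, 19 and Y, with the largest share on the X chromosome, where 4 of 475 tested genes were called (0.842%), namely *Igsf1*, *Dach2*, *Klhl13* and *Arhgap6*, all higher. Chromosome 5 held 5 of 866, all higher, among them the 3 semaphorins. Whether these shares differ from those of other chromosomes was not tested. Within 10 Mb of *Pogz* on chromosome 3, where sequence flanking the targeted allele could differ between the groups, 0 of 238 tested genes were called, with 30 at an unadjusted p under 0.05 and a median difference of -0.02. Over all 13757 genes these were 48 called (0.349%), 1836 at such a p and a median of 0.00.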

How the data were processed

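Libraries of poly(A) RNA were sequenced with paired reads of 43 bases. The authors aligned them with STAR 250a and deposited raw counts for 24421 genes per tissue; their notes name mm9, while gene positions in the tables match GRCm38. CPM values were computed here from the deposited counts with TMM factors over the 18 libraries of a tissue. Members and lists were chosen with earlier results of these data known.

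Fits used edgeR 4.0.16 (quasi-likelihood F test, genotype and sex) in R 4.3.3, on genes above 1 CPM in at least 6 libraries of the comparison, with Benjamini-Hochberg adjustment at 0.05. The scripts were tested on simulated data. The 54 genes listed on more than 1 chromosome were kept, and 27 names had been turned into dates. Alternatives were relative log expression factors, DESeq2 1.42.0, no filter, the bias-adjusted form, no sex term, all 18 cerebellar libraries together, the animal numbers, leaving out each library, and, chosen after seeing the data, leaving out libraries with over 1000 CPM of choroid plexus markers. Depth is given in the report; 3 counts set the floor.

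Tissues were paired by animal number, since both libraries came from the same animal. Over 13333 genes the deviations of an animal's 2 libraries from their group means correlated with a median of 0.288 (from -0.0379 to 0.461, above 0.1 in 10 of 12 animals), against -0.0601 between animals.

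Named genes were *Pogz*, the genes the study's text names, the 12 called genes of smallest p in each direction, called genes of largest change, called members of the lists and up to 4 members of smallest p per list, and the genes of smallest p in the other comparisons. The remaining called genes were named after their values were seen.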

Additional observations from a re-analysis of the deposited data

Results flagged for a closer look

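A library far from the other 5 of its group was marked in 15 of 160 groups examined, and chance marks about 1 in 20 groups. For genes these were control Sample_1192 for *Adamts1* (32.6 CPM), *Col1a2* (48.5 CPM) and *Trp63* (1.07 CPM), control Sample_1129 for *Comp* (7.58 CPM) and *Pogz* (129.6 CPM), and control Sample_1172 for *Fstl1* (17.97 CPM, the lowest). Among cKO+/- libraries they were Sample_1433 for *Cckbr* (4.93 CPM) and *Igsf1* (29.9 CPM), Sample_1120 for *Dach2* (3.93 CPM, the lowest), Sample_933 for *Pogz* (66.4 CPM, the lowest) and Sample_938 for *Tlr4* (8.34 CPM). For marker sums they were red blood cell genes in Sample_1433 (10.3 CPM) and control Sample_1192 (10.5 CPM), and forebrain genes in Sample_1433 (296 CPM) and control Sample_1190 (164 CPM, the lowest). The causes were not tested.

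The effect of the genotype differed between the tissues by an interaction test for 9 of the named genes. The hippocampal minus the cerebellar log2 difference was -2.18 for *Igsf1*, -1.67 for *Cpxm2*, -0.80 for *Gfap*, -1.46 for *Npnt*, -1.38 for *Tlr4*, -1.01 for *Epha5*, -1.31 for *Tdo2*, 1.33 for *Kcnh3* and 2.26 for *Comp*. With the animal as a block *Gfap*, *Kcnh3* and *Tdo2* were not called. Without the cerebellar libraries of Sample_933 and Sample_1433 *Npnt*, *Tlr4*, *Epha5*, *Tdo2* and *Comp* were not called.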

How the results depend on the processing

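The 48 called genes kept their direction under every alternative in which they were tested. DESeq2 called 222 genes, 164 higher and 58 lower, including all 48. Only animals numbered Sample_1120 to Sample_1192 gave 12 (9 higher, 3 lower), only cKO+/- animals Sample_933, Sample_938 and Sample_1433 gave 346 (310 and 36), and a covariate for the animals outside that run gave 12 (10 and 2). Without the libraries high in choroid plexus markers, an alternative chosen after seeing the data, 19 were called (16 and 3). Leaving out 1 library gave 18 to 112 called genes, 14 to 99 higher and 4 to 13 lower. The libraries that moved the count by more than 1.5 times were Sample_938 (18), Sample_933 (22), Sample_1172 (27), Sample_1170 (29), Sample_1190 (31) and Sample_1189 (112). With the other scalings, filters and forms of the test the counts were 43 to 67. The causes were not tested, beside the fewer libraries in some fits.

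The *Pogz* difference passed the threshold with DESeq2 (-0.36) and in no other fit, and lay between -0.39 and -0.26 with 1 library left out.

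In the hippocampus DESeq2 called 128 genes, and leaving out 1 library gave 2 to 384 (384 without Sample_1176, 7 without Sample_1172, 5 without Sample_1129 or Sample_1155). Without the hippocampal libraries high in choroid plexus markers edgeR called 5. For the difference between tissues DESeq2 called 155 genes, the fit without the cerebellar libraries high in choroid plexus markers 5, the fit without those of both tissues 4, and leaving out 1 animal 4 to 193 (193 without Sample_1189, 119 without Sample_1176). The animal as a replicate block, from the pairing of tissues, gave 6. For the sexes leaving out 1 library gave 0 to 17, the latter without Sample_1189. Between cKO-/- and cKO+/- mice DESeq2 called 161, the fit without the libraries high in choroid plexus markers 18, and leave-outs 20 to 42. Between cKO-/- and control mice these were 1916, 536 and 464 to 1702.

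With 3 counts at 0.0922 to 0.112 CPM, depth limits the genes near the filter, such as *Serpinb2*, *Gcgr* and *Trp63*, which passed it in 6 of the 12 fits with 1 library left out. For *Serpinb2* these were the fits without a control and for *Gcgr* those without a cKO+/- library.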
